A study of Mus musculus with 12 samples.

Results

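The 10 genes described here encode enzymes that make and break down arginine, creatine, proline and glutamine: Ass1, Asl, Arg2, Gatm, Gamt, Oat, Prodh, Prodh2, Glul and Glud1. They were chosen by name, with no measured value in the rule but with earlier results of these data known. They are 10 of the 23183 gene symbols in the data. RNA was sequenced from kidney cortex of male C57BL/6N mice that were 6 to 7 weeks old at surgery and were sampled 7 days after unilateral ureteral obstruction (UUO). In UUO the ureter of a single kidney is tied off, and the contralateral kidney (CL) of operated mice served as the control. The mice were Acot12+/+ or Acot12-/-, which gave the groups Acot12+/+ CL, Acot12+/+ UUO, Acot12-/- CL and Acot12-/- UUO with 3 libraries each. Acot12-/- mice carried a germline mutation of Acot12, a thioesterase of acyl-CoA, in every cell type, and no kidney of an unoperated mouse was among the samples. Nothing in the labels says that the 3 libraries of a group came from separate mice, so p-values measure the spread between these libraries, which may be technical.

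The kidney is the main site where arginine is newly made for other organs. Cells of the proximal tubule take up citrulline, argininosuccinate synthase (Ass1) joins it to aspartate, and argininosuccinate lyase (Asl) splits the product into arginine and fumarate. Arginine then has several fates. Glycine amidinotransferase (Gatm) uses it for guanidinoacetate, the precursor of creatine, which guanidinoacetate methyltransferase (Gamt) completes, mainly in the liver. The mitochondrial arginase Arg2 cleaves arginine into urea and ornithine, and ornithine aminotransferase (Oat) turns ornithine into the aldehyde from which proline or glutamate is made. Proline dehydrogenase (Prodh) oxidizes proline to the same aldehyde, and Prodh2 does the corresponding step for hydroxyproline, which comes from collagen. Glutamine synthetase (Glul) binds ammonia into glutamine, whereas glutamate dehydrogenase (Glud1) releases ammonia from glutamate. In the proximal tubule these reactions set how much ammonia reaches the urine.

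Promoters from RefSeq (GRCm38.p6, 250 bases before to 50 bases after the transcription start) were matched by symbol for 8 of the 10 genes, all but Asl and Arg2. Gatm fell most after UUO, the ratio of Prodh to Prodh2, enzymes of parallel steps, fell, and Glul differed between genotypes in CL kidneys. The promoters of these 4 genes are printed 5′ to 3′ on the strand of the gene. They lie at chr2:122611228-122611527 (Gatm, minus strand), chr16:18089141-18089440 (Prodh, minus strand), chr7:30493408-30493707 (Prodh2, plus strand) and chr1:153899679-153899978 (Glul, plus strand). Capitals mark matches, on either strand, to any of 6 motifs that were searched.
Gatm: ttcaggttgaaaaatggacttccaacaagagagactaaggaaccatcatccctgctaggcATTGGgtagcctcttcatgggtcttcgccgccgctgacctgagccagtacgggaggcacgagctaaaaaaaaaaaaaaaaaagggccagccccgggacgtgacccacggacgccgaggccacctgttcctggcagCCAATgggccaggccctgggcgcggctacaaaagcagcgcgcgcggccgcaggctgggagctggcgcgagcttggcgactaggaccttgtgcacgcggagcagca
Prodh: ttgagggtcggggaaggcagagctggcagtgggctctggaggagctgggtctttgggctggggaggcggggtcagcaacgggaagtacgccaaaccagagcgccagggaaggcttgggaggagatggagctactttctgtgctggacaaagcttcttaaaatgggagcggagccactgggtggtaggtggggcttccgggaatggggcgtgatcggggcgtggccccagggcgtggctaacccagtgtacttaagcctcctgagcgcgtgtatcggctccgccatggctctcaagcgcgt
Prodh2: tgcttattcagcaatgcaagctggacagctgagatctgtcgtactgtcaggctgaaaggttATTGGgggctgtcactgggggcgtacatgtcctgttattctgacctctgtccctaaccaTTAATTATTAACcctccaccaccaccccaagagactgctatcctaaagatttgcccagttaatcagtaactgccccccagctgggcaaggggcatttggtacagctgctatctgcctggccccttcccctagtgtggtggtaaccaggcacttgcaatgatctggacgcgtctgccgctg
Glul: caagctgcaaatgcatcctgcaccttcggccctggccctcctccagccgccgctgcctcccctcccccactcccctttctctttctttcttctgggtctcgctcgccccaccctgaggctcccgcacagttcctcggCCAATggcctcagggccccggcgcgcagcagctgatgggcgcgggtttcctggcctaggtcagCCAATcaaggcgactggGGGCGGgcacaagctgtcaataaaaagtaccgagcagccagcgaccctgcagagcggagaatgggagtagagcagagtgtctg
The motifs were the HNF1 palindrome (GTTAAT, any base, ATTAA), the HNF4 site CAAAGTCCA, the PPAR direct repeat (2 copies of AGGTCA with 1 base between them), the TATA box TATAAA, the CCAAT box and the GC box GGGCGG. HNF1 and HNF4 are transcription factors of the proximal tubule, and PPARs respond to fatty acids. Among the 8 promoters the HNF1 palindrome occurred in that of Prodh2 alone, 130 bases before the start on the opposite strand, and it occurred in 20 of the 32851 mouse promoters of the same length (0.0609%). Gatm, Oat, Glul and Prodh2 held a CCAAT box, which 37.4% of all promoters hold. A GC box occurred in the promoters of Ass1, Gamt, Oat, Glul and Glud1, against 35.7% of all promoters. None of the 8 held the HNF4 site (0.475% of all promoters), the PPAR repeat (0.0396%) or TATAAA (13.6%). The Prodh promoter held none of the 6 motifs. These matches describe letters in the window and are not evidence of binding.

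Expression is given in FPKM, the fragments of a gene divided by its length and by the depth of the library, so that levels of different genes can be compared. This unit was worked out from steps in the low values, which also gave the depth. CL libraries held 12300000 to 13700000 fragments from Acot12+/+ and 14100000 to 16200000 from Acot12-/- mice, and UUO libraries held 21200000 to 22900000 and 18500000 to 22000000. The lowest of the 120 values of the 10 genes was 3.17 FPKM (Arg2 in Acot12+/+ CL replicate 3), or about 53 fragments, so none was near the limit of detection. Acot12 itself was lower in every Acot12-/- library (6.80 to 9.15 FPKM in CL, 1.80 to 3.86 in UUO) than in every Acot12+/+ library of the same side (52.7 to 78.1 in CL, 9.98 to 21.2 in UUO). Of the libraries, Acot12-/- CL replicate 2 stood apart from the other 2 of its group on the second principal component. Results that rest on it are given with and without it. The FPKM of a library summed to 799700 to 978000 in CL and to 491100 to 686400 in UUO libraries, so the direction of small changes depended on whether totals were made equal.

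Markers of the proximal tubule (12 genes, among them the endocytic receptor Lrp2 and the phosphate transporter Slc34a1) were detected in every library. In Acot12+/+ mice they summed to 3329 to 4531 FPKM on the CL side and 453 to 1086 on the UUO side, and in Acot12-/- mice to 3634 to 6759 and 279 to 1359. After UUO 11 of the 12 were called lower in Acot12+/+ and 12 of 12 in Acot12-/- kidneys (median log2 differences −2.17 and −2.55). Of all genes tested 23.9% and 27.2% were. Markers of other tubule segments fell as well. Of 6 markers of the thick ascending limb and distal tubule, 6 were called lower in each genotype (medians −2.34 and −1.91). Of 6 collecting duct markers, 6 were called lower in Acot12+/+ and 5 in Acot12-/- kidneys (−1.81 and −1.60). Macrophage markers (10 genes) summed to 141 to 160 FPKM in CL and 626 to 741 in UUO libraries of Acot12+/+ mice, and to 51.7 to 109 and 666 to 841 in those of Acot12-/- mice. No marker of these lists was at 0 in all libraries of a group. In whole cortex, fewer cells of a type and less RNA per cell cannot be told apart.

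Ass1 had the highest mean of the 10 genes in each group, although its libraries overlapped with those of Glul in Acot12-/- UUO. In Acot12+/+ CL kidneys the order of the means was Ass1 (1189 ± 373 FPKM, SD, n = 3), Gatm (259 ± 87.6), Glul (191 ± 40.3), Glud1 (165 ± 14.1), Asl (102 ± 23.8), Oat (101 ± 7.62), Prodh (72.2 ± 10.2), Gamt (17.4 ± 3.04), Prodh2 (14.9 ± 3.87) and Arg2 (5.61 ± 2.17). The libraries of neighbours overlapped between Gatm and Glul, Glul and Glud1, Asl and Oat, and Gamt and Prodh2, so their order is not resolved. Within a metabolic sequence the RNAs of the enzymes were present at unequal levels. Ass1 RNA was 10.96 to 12.5 times as high as Asl RNA in these libraries, and Gatm 9.29 to 19.5 times as high as Gamt. Protein and activity of the enzymes were not measured in these data. Ass1 contributed 52.0 to 60.8% of the summed FPKM of the 10 genes in Acot12+/+ CL libraries and 25.0 to 42.0% in Acot12+/+ UUO libraries. In Acot12-/- kidneys its shares were 62.6, 34.9 and 64.5% on the CL side and 45.8, 21.2 and 42.5% on the UUO side, and so overlapped. Arg2, last in both CL groups, had the seventh mean in both UUO groups, just below Gatm, but the libraries of Gatm and Arg2 overlapped there. In Acot12-/- UUO those of Asl and Gatm, and of Arg2 and Prodh, overlapped as well, so these places are not resolved.

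**Figure D1:**
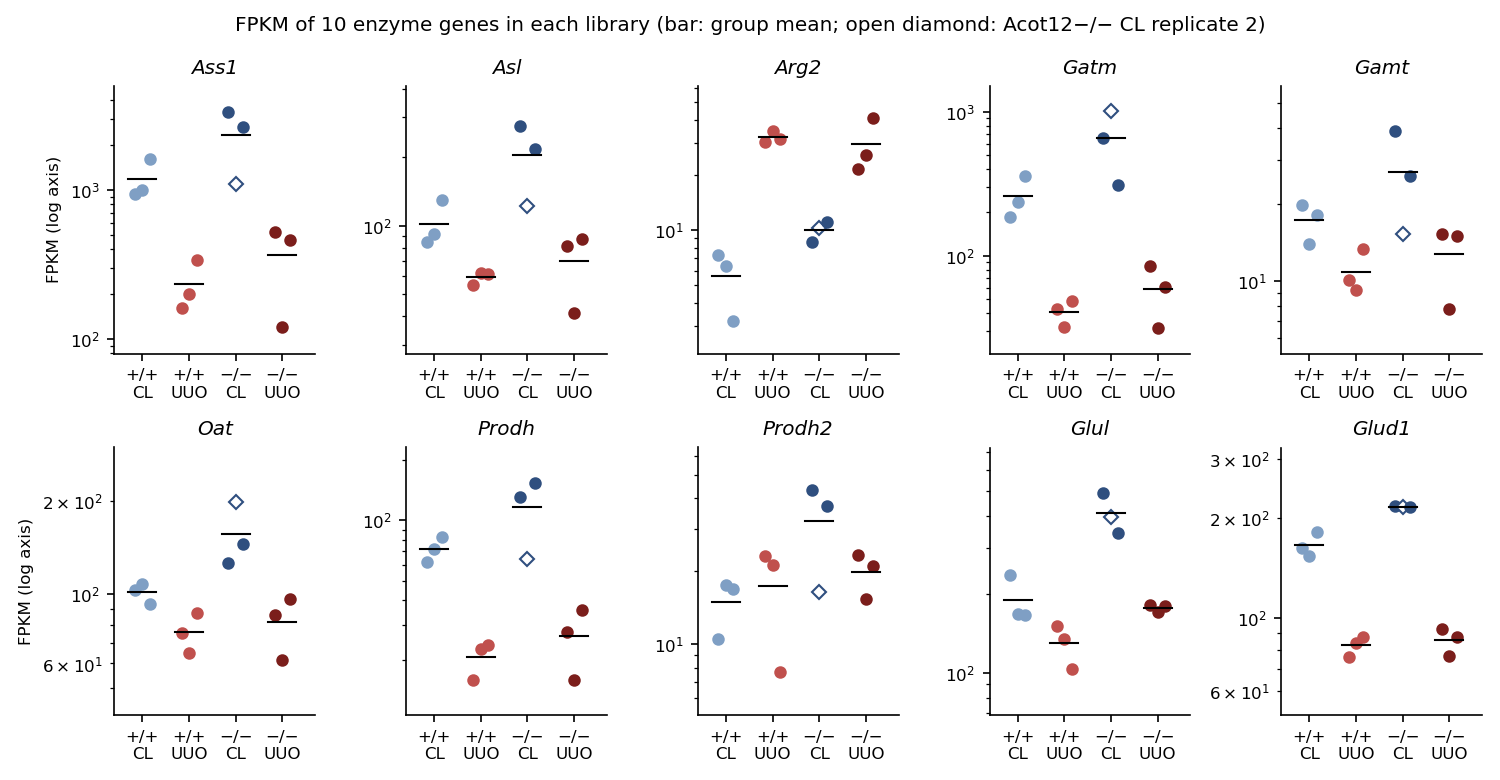
FPKM of each gene (log axis) in the 12 libraries, with a bar at each group mean and Acot12-/- CL replicate 2 as an open diamond. Within each genotype the UUO libraries lie below the CL libraries for 8 genes and above them for Arg2, while Prodh2 overlaps. Across the genotypes, all UUO libraries lie below all CL libraries for 4 genes (22% of all genes) and above them for Arg2 (21.5%), and 5 genes overlap.

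The comparison of UUO with CL asks how obstruction changed the RNA of these enzymes. In Acot12+/+ kidneys Arg2 rose and Ass1, Gatm, Prodh, Glul and Glud1 fell, which makes 1 gene called higher and 5 called lower of 10. A gene was called at an adjusted p under 0.05 with limma, adjusted over the 13243 genes tested, of which 23.6% were called higher and 23.9% lower. In Acot12-/- kidneys Arg2 rose and the same 5 genes as well as Asl, Gamt and Oat fell, against 26.6% of all genes called higher and 27.2% lower. The median difference of the 10 genes on the log2(FPKM + 1) scale was −0.69 in Acot12+/+ and −1.26 in Acot12-/- kidneys, and that of all genes tested was 0.01 and −0.01. Libraries of the 2 sides did not overlap for 9 of the 10 genes in each genotype, 1 higher and 8 lower, where 35.5% (higher) and 35.8% (lower) of all genes did not overlap in Acot12+/+ and 27.8% and 27.6% in Acot12-/- kidneys.

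Scaling every library to the same total raised the median difference of all genes by 0.62 in Acot12+/+ and 0.47 in Acot12-/- kidneys and cut the share of calls that were lower from 50.3 to 12.0% and from 50.5 to 19.7%. Under that scaling Arg2, Ass1, Gatm and Prodh kept their calls and directions in both genotypes. Glud1 in Acot12+/+ kidneys (−0.26, adjusted p = 0.207), and Gamt (−0.46, 0.201) and Oat (−0.39, 0.112) in Acot12-/- kidneys were no longer called, and in Acot12+/+ kidneys Glul (0.18), Oat (0.30) and Gamt (0.06) changed sign. The difference of Asl in Acot12+/+ kidneys, not called before, shrank to −0.019 (adjusted p = 0.96). That scaling applies a single factor to each library, so it moves these genes and the all-gene median by similar log2 amounts. Set against that median, their differences between UUO and CL were lower by 0.32 to 0.92, which largely restates the unscaled values. It is no separate test of whether their falls depend on scaling. With median-ratio size factors, which raised the median by 0.08 and 0.14, 42.8 and 40.4% of the calls were lower.

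**Figure D2:**
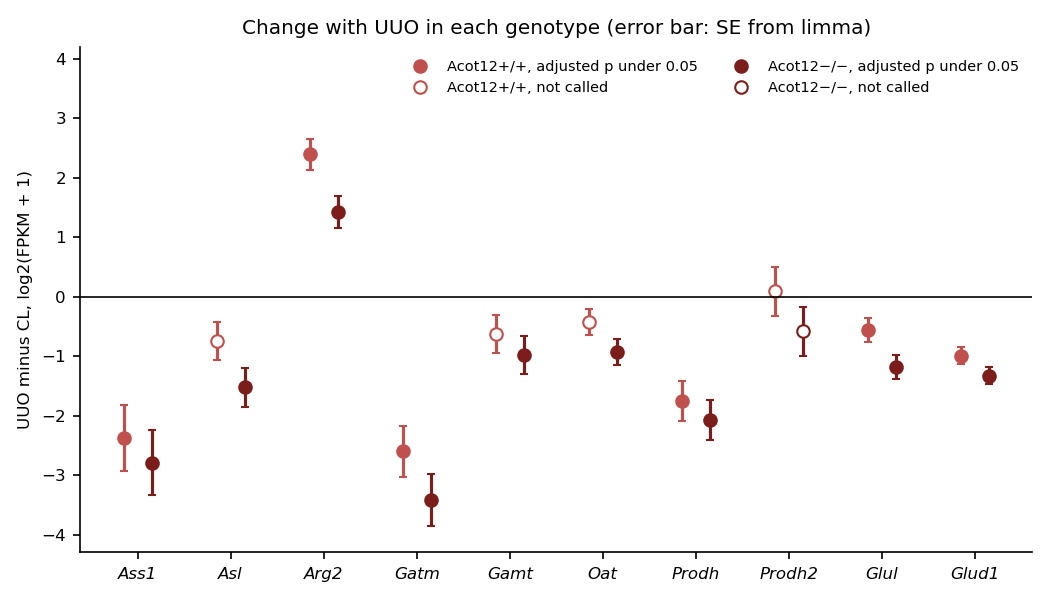
Difference between UUO and CL on the log2(FPKM + 1) scale for each gene in Acot12+/+ (light) and Acot12-/- (dark) kidneys, with the SE from limma. Filled points had an adjusted p under 0.05. Arg2 lies above 0 and 9 genes lie below it in Acot12-/- kidneys, with Gatm lowest at −3.42.

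For the synthesis of arginine, Ass1 had 943, 1006 and 1618 FPKM in the CL and 160, 202 and 336 FPKM in the UUO libraries of Acot12+/+ mice. Among Acot12-/- mice it measured 3326, 1089.55 and 2651 FPKM in CL libraries against 519.8, 119.7 and 461 in UUO libraries. Each UUO library was lower than each CL library of either genotype. Ass1 fell by 2.38 on the log2 scale in Acot12+/+ (SE 0.55, adjusted p = 0.00399) and fell by 2.79 in Acot12-/- kidneys (SE 0.55, adjusted p = 0.0011), to 0.193 and 0.145 of the CL level. Without Acot12-/- UUO replicate 2, the lowest library, the fall in Acot12-/- kidneys was −2.12 (adjusted p = 0.00306). Asl, the next enzyme, had 84.8, 91.8 and 129 FPKM in the CL and 54.8, 62.1 and 61.7 FPKM in the UUO libraries of Acot12+/+ mice, with no overlap and a log2 difference of −0.74 (SE 0.32, adjusted p = 0.0771). With the kidneys paired by replicate number its adjusted p was 0.00473, and it was also called without Acot12-/- CL replicate 2 (0.0287) or Acot12-/- UUO replicate 2 (0.0405), whereas under equal totals almost no difference was left. Its CL libraries from Acot12-/- mice gave 274, 121 and 217 FPKM and the UUO libraries 81.7, 41.2 and 87.1, and it fell by 1.52 on the log2 scale (SE 0.32, adjusted p = 0.00177).

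Arg2, which breaks arginine down, went the other way. It had 7.30, 6.36 and 3.17 FPKM in the CL and 30.5, 35.0 and 31.5 FPKM in the UUO libraries of Acot12+/+ mice. The Acot12-/- values were 8.62, 10.2 and 11.1 FPKM on the CL side and 21.6, 25.7 and 41.0 on the UUO side. All 6 UUO libraries thus lay above all 6 CL libraries. Arg2 rose by 2.39 on the log2 scale in Acot12+/+ (SE 0.27, adjusted p = 3.74e-05) and by 1.43 in Acot12-/- kidneys (SE 0.27, adjusted p = 0.000734). Its last bases (chromosome 12, 79130777 to 79156301, plus strand, GRCm38, GENCODE vM21) overlap Vti1b on the opposite strand. The library kit marks strand, but whether counting used it is not given in the sources used here.

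For the synthesis of creatine, Gatm showed the largest fall of the 10 genes in each genotype. It had 185, 236 and 355 FPKM in the CL and 42.4, 32.0 and 48.2 FPKM in the UUO libraries of Acot12+/+ mice. Among Acot12-/- mice it measured 657, 1003 and 312 FPKM in CL libraries against 84.3, 31.4 and 60.2 in UUO libraries. The UUO and CL libraries did not overlap, and the CL libraries of Acot12-/- kidneys spread over 3.22-fold. Gatm fell by 2.60 on the log2 scale in Acot12+/+ (SE 0.43, adjusted p = 0.000461) and fell by 3.42 in Acot12-/- kidneys (SE 0.43, adjusted p = 4.56e-05), to 0.165 and 0.0936 of the CL level. Gamt, the second enzyme of the sequence, had 19.9, 14.0 and 18.2 FPKM in the CL and 10.1, 9.19 and 13.4 FPKM in the UUO libraries of Acot12+/+ mice. Its log2 difference there was −0.63 (SE 0.32, adjusted p = 0.123, and 0.0125 with the kidneys paired). Its CL libraries from Acot12-/- mice gave 38.9, 15.3 and 25.9 FPKM and the UUO libraries 15.3, 7.80 and 15.1, and it fell by 0.97 on the log2 scale (SE 0.32, adjusted p = 0.0212). The call was lost without Acot12-/- CL replicate 1 (−0.67, adjusted p = 0.0927) or Acot12-/- UUO replicate 2 (−0.68, 0.102), and in a fit of the Acot12-/- libraries alone (adjusted p = 0.0655).

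Among the enzymes of ornithine and proline, Oat had 103, 108 and 93.2 FPKM in the CL and 75.3, 64.7 and 87.1 FPKM in the UUO libraries of Acot12+/+ mice. The groups did not overlap, and the log2 difference of −0.43 (SE 0.21) had an adjusted p of 0.116, or 0.0495 without Acot12-/- CL replicate 2. The Acot12-/- values of Oat were 126, 197 and 145 FPKM on the CL side and 85.9, 61.5 and 96.7 on the UUO side. The gene fell by 0.93 on the log2 scale (SE 0.21, adjusted p = 0.00275). The annotated span of Fgfr2 covers Oat on the same strand (chromosome 7, 132557478 to 132576398, minus strand). Prodh had 61.9, 72.3 and 82.4 FPKM in the CL and 15.9, 22.6 and 23.8 FPKM in the UUO libraries of Acot12+/+ mice. Among Acot12-/- mice it measured 131, 63.7 and 155 FPKM in CL libraries against 27.6, 15.9 and 35.5 in UUO libraries. Prodh fell by 1.76 on the log2 scale in Acot12+/+ (SE 0.34, adjusted p = 0.0012) and fell by 2.08 in Acot12-/- kidneys (SE 0.34, adjusted p = 0.000274). It overlaps Dgcr6 on the opposite strand (Prodh spans 18060357 to 18090203 of chromosome 16, minus strand).

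Prodh2, the enzyme of hydroxyproline, was the gene of the 10 that was not called in either genotype. It had 10.5, 17.5 and 16.8 FPKM in the CL and 23.1, 21.2 and 7.64 FPKM in the UUO libraries of Acot12+/+ mice. In 2 of the 3 Acot12+/+ UUO libraries it was thus above every CL library of that genotype, and in replicate 3 it was below them. The log2 difference was 0.10 (SE 0.41, adjusted p = 0.864). Its CL libraries from Acot12-/- mice gave 43.3, 16.4 and 37.1 FPKM and the UUO libraries 23.3, 15.4 and 21.1, a log2 difference of −0.58 (SE 0.41, adjusted p = 0.258). Without Acot12-/- CL replicate 2 it fell there by 0.99 (adjusted p = 0.045).

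Of the enzymes of glutamine and glutamate, Glul had 237, 168 and 167 FPKM in the CL and 151, 134 and 103 FPKM in the UUO libraries of Acot12+/+ mice. The Acot12-/- values were 487, 394 and 344 FPKM on the CL side and 182, 170.4 and 179.6 on the UUO side. The sides did not overlap within a genotype, but all 3 Acot12-/- UUO libraries lay above 2 of the Acot12+/+ CL libraries. Glul fell by 0.55 on the log2 scale in Acot12+/+ (SE 0.20, adjusted p = 0.0397) and fell by 1.19 in Acot12-/- kidneys (SE 0.20, adjusted p = 0.000382). The call in Acot12+/+ kidneys was lost with median-ratio size factors (−0.45, adjusted p = 0.081). It was also lost without Acot12+/+ CL replicate 1 (0.175), Acot12+/+ UUO replicates 2 (0.0763) or 3 (0.163), or Acot12-/- UUO replicates 1 (0.0541) or 3 (0.0515), where each value is the adjusted p. Glud1 had 162, 153 and 180.5 FPKM in the CL and 76.2, 83.8 and 87.3 FPKM in the UUO libraries of Acot12+/+ mice. Among Acot12-/- mice it measured 217, 215 and 215 FPKM in CL libraries against 92.6, 76.7 and 87.5 in UUO libraries, which left it with the smallest spread of the 10 genes in CL kidneys of that genotype (1.01-fold). Glud1 fell by 0.99 on the log2 scale in Acot12+/+ (SE 0.14, adjusted p = 0.000148) and fell by 1.33 in Acot12-/- kidneys (SE 0.14, adjusted p = 1.31e-05).

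In a fit over both genotypes, Arg2 rose by 1.91 on the log2 scale (SE 0.22, adjusted p = 7.5e-06) and the other genes except Prodh2 fell, from −3.01 for Gatm (SE 0.31, adjusted p = 2.63e-06) to −0.68 for Oat (SE 0.16, adjusted p = 0.00223). Of all genes 31.3% were called higher and 32.1% lower in that fit. Prodh2 had a difference of −0.24 (SE 0.29, adjusted p = 0.491). With equal totals, which moved the overall median up by 0.55, the falls of Asl, Gamt, Oat and Glul were no longer called and Prodh2 had a positive value (0.37, adjusted p = 0.268).

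Because proximal tubule markers fell as well, each gene was also set against their mean in the same library, on the log2(FPKM + 1) scale. Markers of other tubule segments, given above, fell too, so a match with this mean does not single out the proximal tubule. A value of 0 for the difference between UUO and CL then means that a gene changed as much as the average marker did. This difference was −0.02 for Ass1 (exact permutation test with sides permuted within genotypes, two-sided, p = 0.99) and −0.45 for Gatm (exact test, p = 0.195), and the libraries of the 2 sides overlapped for both. Relative to the marker mean Ass1 stood at 2.87 to 3.17 in CL and 2.92 to 2.99 in UUO libraries of Acot12+/+ mice, and at 2.52 to 3.65 and 3.23 to 3.31 in those of Acot12-/- mice. The other 8 genes rose relative to the markers, each still under 0.05 after adjustment for the 10 tests. Nearly every gene did so: 97.4% of the 13243 genes were higher at an exact p under 0.05, and the median difference was 2.56 for all genes and 1.56 for the 10. Prodh rose by 0.64 (exact test, p = 0.025), with overlap between the sides. Glud1 rose by 1.40, Asl by 1.43, Glul by 1.69, Gamt by 1.76, Oat by 1.89, Prodh2 by 2.32 and Arg2 by 4.47. For these 7 genes all 6 UUO libraries lay above all 6 CL libraries (exact test, p = 0.005 for each, the smallest that the 400 arrangements allow), as they did for 92.0% of all genes. Arg2, for example, stood at −5.43 to −3.92 in the CL and at −0.43 to 0.56 in the UUO libraries of Acot12+/+ mice.

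The call for Prodh was lost in 9 of the 12 analyses that each left out a single library. With Slc7a13 and Slc22a30, markers of the last segment of the proximal tubule, taken out of the list, Prodh was not called (0.41), whereas Gatm fell relative to the markers (−0.68). The other 7 genes kept their calls throughout.

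**Figure D3:**
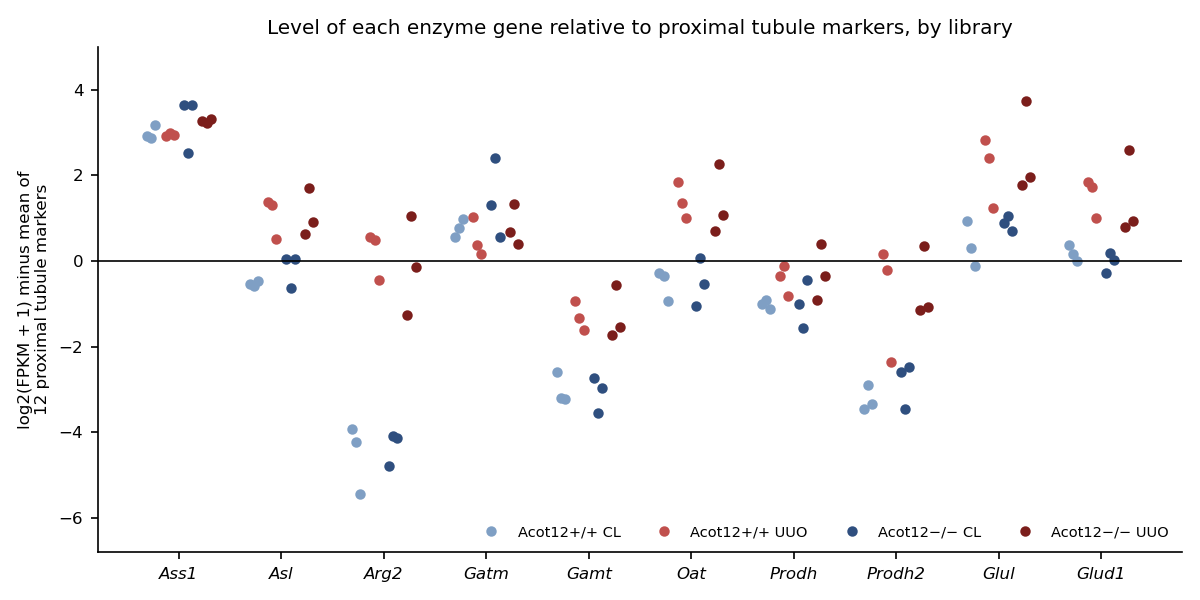
Level of each gene minus the mean of the 12 proximal tubule markers in the same library, on the log2(FPKM + 1) scale, with a point for each library. Points of UUO libraries (red) lie above those of CL libraries (blue) for 7 genes (and for 92.0% of all genes). Those of Ass1 lie at 2.52 to 3.65 in CL and at 2.92 to 3.31 in UUO libraries.

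The ratio of RNA between enzymes of a sequence, or of opposite or parallel steps, was compared between the sides for 6 pairs. The p-values came from exact two-sided permutation tests and were adjusted over the 6. An adjusted p of 0.0075 stands for an exact p of 0.005, the smallest that the 400 arrangements allow. It is a floor and does not rank the pairs that share it. The ratio of Gatm to Gamt was 9.29, 16.9 and 19.5 in the CL and 4.19, 3.48 and 3.602 in the UUO libraries of Acot12+/+ mice. The Acot12-/- ratios were 16.9, 65.4 and 12.0 on the CL side and 5.50, 4.02 and 3.99 on the UUO side. The value of 65.4 came from Acot12-/- CL replicate 2, and even without it all CL libraries lay above all UUO libraries. The log2 ratio fell by 2.21 (exact test, adjusted p = 0.0075). The log2 ratio of Ass1 to Asl fell by 1.45 (exact test, adjusted p = 0.0075), from ratios of 8.97 to 12.5 in the CL libraries to 2.91 to 6.36 in the UUO libraries. Ass1 exceeded Arg2 by 107- to 511-fold in CL and by 4.66- to 24.1-fold in UUO libraries, a fall by 4.49 (exact test, adjusted p = 0.0075).

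Prodh was 3.04 to 5.90 times as high as Prodh2 in CL and 0.689 to 3.12 times as high in UUO libraries. The highest UUO value (3.12, Acot12+/+ replicate 3) passed the lowest CL value (3.04, Acot12-/- replicate 1) but not the lowest of its own genotype, 4.13, and the log2 ratio fell by 1.68 (exact test, adjusted p = 0.0075). The ratio of Oat to Prodh was 1.13 to 1.66 in the CL and 2.86 to 4.73 in the UUO libraries of Acot12+/+ mice. Acot12-/- mice gave 0.961, 3.09 and 0.935 on the CL side against 3.11, 3.86 and 2.72 on the UUO side, so that replicate 2 of Acot12-/- CL lay among the UUO libraries. This log2 ratio rose by 1.24 (exact test, adjusted p = 0.018). Glul to Glud1 was not resolved: 0.923 to 2.25 in CL and 1.18 to 2.22 in UUO libraries, a log2 difference of 0.29 (exact test, adjusted p = 0.11). Without Acot12-/- CL replicate 1 it was 0.36 (exact test, adjusted p = 0.04).

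**Figure D4:**
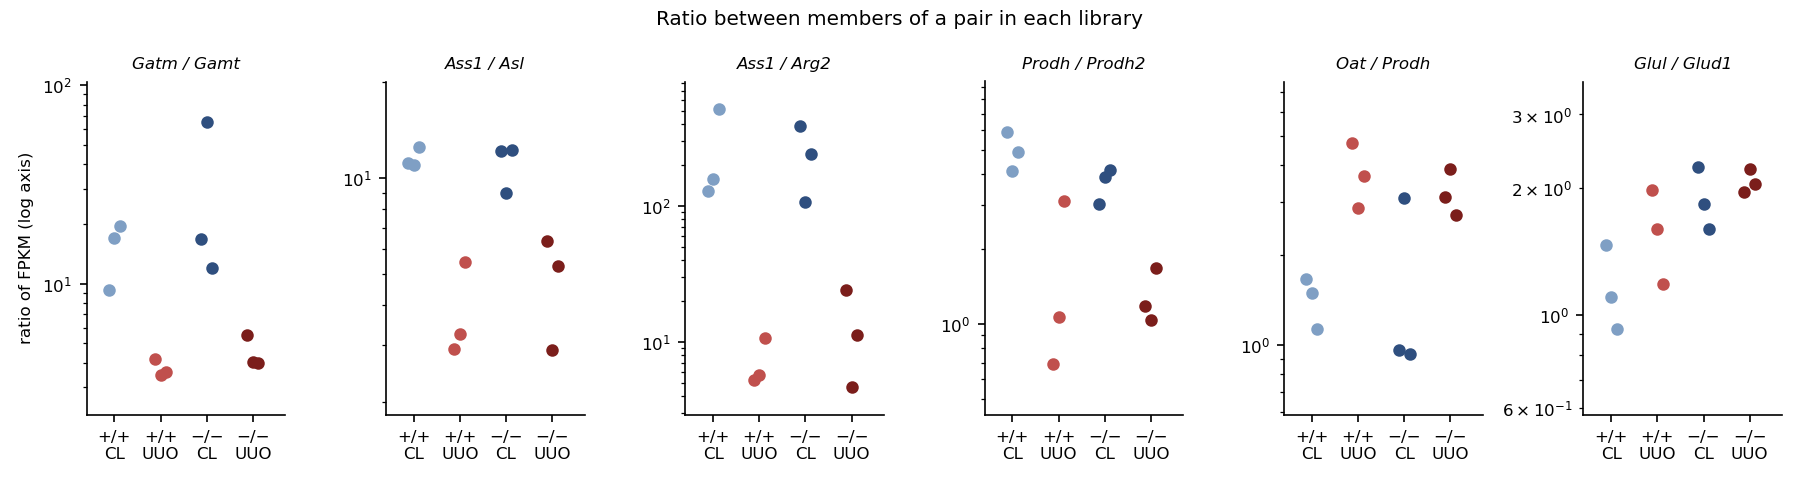
Ratio of FPKM within 6 pairs of enzymes in each library (log axis), by genotype and side. The ratios of Gatm to Gamt, Ass1 to Asl and Ass1 to Arg2 are lower in every UUO library than in every CL library, and that of Glul to Glud1 overlaps.

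The comparison of genotypes asks whether the mutation of Acot12 altered the RNA of these enzymes. In CL kidneys the mean of all 10 genes was higher in Acot12-/- than in Acot12+/+. Their median log2 difference was 0.83, against 0.01 for all genes tested and 0.50 for the 12 proximal tubule markers. Of the 10, Glul alone was called. Its Acot12-/- libraries (344 to 487 FPKM) lay above its Acot12+/+ libraries (167 to 237), and the log2 difference was 1.10 (SE 0.20, adjusted p = 0.0122), a ratio of 2.15. Of all genes 1.12% were called higher and 3.36% lower. Arg2, Oat and Glud1 also had no overlap, with Acot12-/- higher, but were not called (adjusted p 0.133 to 0.154). The 4 genes of 10 without overlap stand beside 8.6% of all genes in that direction. The other 6 genes had log2 differences of 0.52 (Gamt) to 1.24 (Gatm) and adjusted p of 0.14 to 0.472.

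These values depended on single libraries. Without Acot12-/- CL replicate 2, Asl (1.27, adjusted p = 0.0142), Prodh (0.98, 0.0335), Prodh2 (1.40, 0.0294), Glul (1.12, 0.00744) and Glud1 (0.39, 0.0473) were called, 5 genes of 10, and the number called among all genes went from 593 to 2918. That library had the lowest Ass1, Asl, Gamt, Prodh and Prodh2 and the highest Gatm and Oat of its group. Without Acot12-/- CL replicate 3, Gatm was called (1.70, adjusted p = 0.034). The call of Glul was lost without Acot12+/+ CL replicates 2 (1.02, adjusted p = 0.0531) or 3 (1.02, 0.0522), without Acot12-/- CL replicate 1 (0.97, 0.0532), and in a fit of the CL libraries alone (0.0952). Over all alternatives its adjusted p ran from 0.00744 to 0.0952.

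Markers of some cell types also differed between the CL groups. The mean of the proximal tubule markers on the log2(FPKM + 1) scale was 7.57 to 8.05 in Acot12-/- and 6.97 to 7.49 in Acot12+/+ CL libraries, without overlap, but their summed FPKM, given above, overlapped. The sum of 10 macrophage markers is also given above, 8 lymphocyte markers summed to 3.2 to 4.1 FPKM in Acot12-/- and 9.4 to 15.9 in Acot12+/+, 8 fibroblast markers summed to 47.7 to 111 FPKM in Acot12-/- and 141 to 180 in Acot12+/+, and 6 endothelial markers to 42.7 to 69.0 and 128 to 207 FPKM. None of these sums of macrophage, lymphocyte, fibroblast and endothelial markers overlapped between genotypes. The sums of thick ascending limb and distal tubule, collecting duct, podocyte and injured tubule markers did overlap. Relative to the proximal tubule markers, the differences between genotypes in CL kidneys ran from −0.20 (Glud1) to 0.65 (Gatm), with 0.51 for Glul. The libraries of the genotypes overlapped for each of the 10 genes on this scale. The share of all genes that overlapped in this way was not computed, so the overlap shows nothing particular to the 10. The part of these cell types in the higher Glul of Acot12-/- CL kidneys was not tested.

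**Figure D5:**
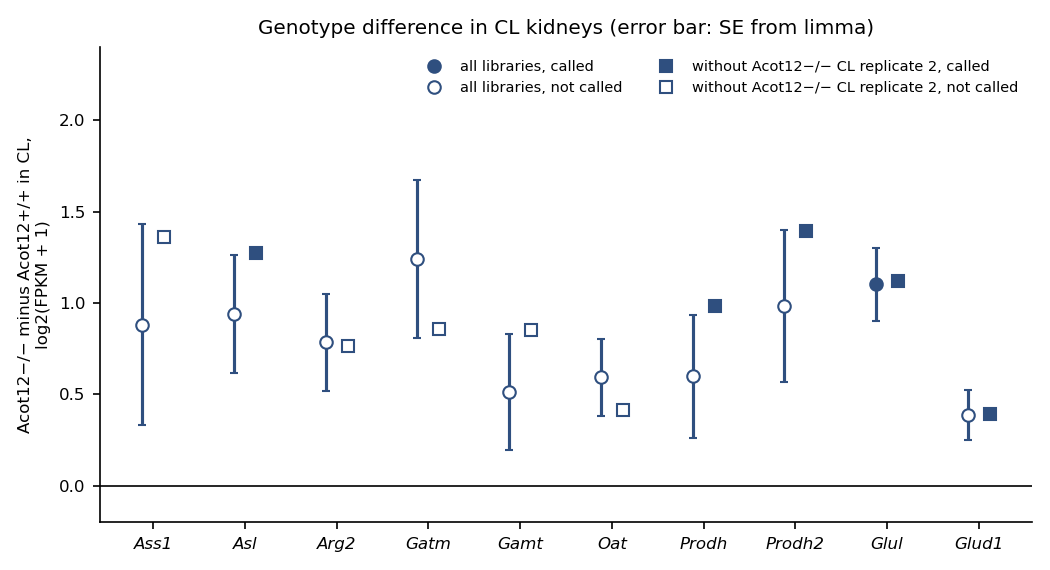
Difference between Acot12-/- and Acot12+/+ CL kidneys on the log2(FPKM + 1) scale for each gene, with all libraries (circles, SE from limma) and without Acot12-/- CL replicate 2 (squares). Filled symbols had an adjusted p under 0.05, which held for Glul with all libraries and for 5 genes without that library.

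In UUO kidneys no gene of the 10 was called between genotypes with limma (0.0151% of all genes were, 2 of 13243), and 1 of the 10 had an unadjusted p under 0.05 (2.36% of all genes did). That was Glul, with 170.4 to 182 FPKM in Acot12-/- and 103 to 151 FPKM in Acot12+/+ libraries, the gene of the 10 whose libraries did not overlap (5.5% of all genes were higher without overlap). Its log2 difference was 0.47 (SE 0.20, adjusted p = 1). The others ranged from −0.18 (Arg2, SE 0.27) to 0.47 (Ass1, SE 0.55), and the signs of Arg2, Asl, Oat, Prodh2 and Glud1 depended on the scaling or on single libraries. The interaction, which asks whether the change with UUO differed between genotypes, was called for 0 of the 10 genes with limma, against 0.106% of all genes. Its value was negative for all 10, with a median of −0.57 against −0.01 for all genes and −0.50 for the 12 proximal tubule markers. The higher Acot12-/- CL values enter the interaction, so it is not a separate result. At an unadjusted p under 0.05 there were 2 of the 10, Arg2 (−0.97, SE 0.38, adjusted p = 0.369) and Glul (−0.63, SE 0.29, adjusted p = 0.465), against 10.5% of all genes. For Arg2 this was a smaller rise in Acot12-/- kidneys, and for Glul a larger fall. The Ass1 value changed sign without Acot12-/- UUO replicate 2 (0.26).

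The wider pathways were described from lists written around these enzymes, with the count called after UUO in Acot12+/+ and Acot12-/- kidneys. Beside these counts stand 23.6% of all genes called higher and 23.9% lower in Acot12+/+, and 26.6% and 27.2% in Acot12-/- kidneys. Of 11 genes of arginine and nitric oxide metabolism 5 were tested, and 1 was called higher and 3 lower in Acot12+/+, 2 and 3 in Acot12-/-. Ddah2, which breaks down the methylarginines that inhibit nitric oxide synthases, rose from 14.2 to 50.8 FPKM in Acot12+/+ kidneys (log2 difference 1.76 and 1.98 in the respective genotypes). Ddah1, which has the same activity, fell (−1.34 and −1.52), as did Agxt2 (−1.72 and −2.02), which also degrades methylarginines, and Agmat (−0.74 and −1.02). Under equal totals Agmat was not called in Acot12+/+ kidneys (adjusted p = 0.2). Cps1 and Otc, the mitochondrial steps of the liver urea cycle, had group means of at most 0.024 FPKM. Of 11 polyamine genes 10 were tested, and 3 were called higher and 4 lower in Acot12+/+, 3 and 3 in Acot12-/-. Odc1, which makes putrescine from ornithine, fell (−1.91 and −1.51), as did Sms (−1.14 and −1.44) and Azin1 (−0.69 and −1.06). Under equal totals Sms in Acot12+/+ (adjusted p = 0.0581) and Azin1 in both genotypes (0.03 with an adjusted p of 0.926, and −0.53 with 0.0722) were not called. Smox (2.10 and 2.58) and Paox (0.90 and 0.63), oxidases of polyamines, rose, and so did Azin2 (0.63 and 0.59).

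Of 5 genes of creatine transport and use 3 were tested, and 3 were called lower in Acot12+/+ and 2 in Acot12-/- kidneys. The mitochondrial creatine kinase Ckmt1 fell (−1.17 and −0.85), and the creatine transporter Slc6a8 fell as well (−0.62 and −1.15). Under equal totals Ckmt1 was called in neither genotype (−0.46, adjusted p = 0.0515, and −0.31, 0.179), and Slc6a8 had a positive value in Acot12+/+ kidneys (0.10, adjusted p = 0.693). The shares of all genes called, given above, apply to the following counts too. Of 12 genes of proline and hydroxyproline 9 were tested, and 2 were called higher and 6 lower in each genotype. Aldh18a1, the entry into proline synthesis, rose from 1.46 to 6.04 FPKM in Acot12+/+ and from 1.23 to 5.17 FPKM in Acot12-/- kidneys (1.52 and 1.47), and P4ha2, which hydroxylates collagen proline, rose (0.95 and 0.63). Aldh4a1, which takes the product of Prodh to glutamate, fell (−2.01 and −2.13), and so did Hoga1 (−1.76 and −1.83) and Grhpr (−1.89 and −1.60), which act on the breakdown products of hydroxyproline. Of 15 genes of glutamine and ammonia 14 were tested, and 3 were called higher and 8 lower in each genotype. Asns, which makes asparagine from glutamine (1.96 and 1.30), and the glutamine transporter Slc1a5 (0.80 and 1.07) rose. Pck1 (−1.98 and −2.64), the ammonia transporter Rhbg (−1.88 and −1.82) and the glutamate transporter Slc1a1 (−1.31 and −1.95) fell. Between genotypes none of the 41 tested genes of these lists was called in CL or UUO kidneys. Of all genes 4.48% were called in CL and 0.0151% in UUO kidneys, so few or none of 41 would be called at those shares.

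The patterns of the 10 genes over the 12 libraries were compared by Pearson's r of log2(FPKM + 1), as a description of libraries that share side, genotype and depth. Without Arg2 and Prodh2, the 28 pairs among the other 8 genes had r of 0.668 to 0.979. Arg2 had r of −0.84 to −0.076 with the other genes and Prodh2 −0.076 to 0.626. Among all genes tested with a mean of at least 1 FPKM, the gene most like Ass1 was Cryl1 (r = 0.9949), followed by Pbld1 (0.994) and Tcn2 (0.9936). Hlf was among the genes most like Gatm (0.9921), Prodh was most like Fuca1 (0.9963) and Glud1 like Fech (0.9974) and Dera (0.9971). For Asl it was Slc43a2 (0.9797), for Gamt Pdk2 (0.9739), for Oat Vdac2 (0.9717) and for Arg2 Atic (0.9689). Glul was most like Ciart (0.9776), a gene of the circadian clock. Prodh2 had the weakest closest match of the 10, Nicn1 (0.9078).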

How the data were processed

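Kidney cortex RNA was extracted with RNAiso Plus (Trizol per the labels), and strand-specific libraries (NEBNext Ultra II Directional) were sequenced on a NovaSeq. Trimming, mapping and normalization were done for the authors by a company. The submitters' processing notes name mm10 and edgeR, and the aligner is not given in the sources used here. The deposited values are FPKM, a unit that was derived from their steps, since the authors' files do not name it. Depth came from those steps, with a method tested on simulated data.

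From the authors' FPKM, log2(FPKM + 1) was fitted with limma 3.58.1 (R 4.3.3) over all 12 libraries as 4 groups, with an eBayes variance trend. Genes had at least 1 FPKM in at least 3 libraries, and 58 genes listed at 0 beside at least 10 FPKM in the same group were left out, a choice made after values had been seen. Benjamini-Hochberg adjustment covered 13243 genes. UUO against CL over both genotypes was a separate additive fit. Levels relative to proximal tubule markers and ratios were tested by exact permutation of sides within genotypes (Python 3.11.15). Levels relative to the markers were later computed for all genes tested as well, as the background of the counts. The fit was tested on simulated data.

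The 10 genes, the pathway and marker lists, and the pairs were chosen with earlier results of these data known. Named genes were the 10, Acot12, in each pathway list up to 3 with the largest rise and up to 3 with the largest fall over both genotypes among those called in both with a mean of at least 1 FPKM, and the 3 genes most correlated with each of the 10. Any other named gene was chosen after its values were seen. A result of the likeness comparison is not reported here.

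Neither the labels nor the methods say that equal replicate numbers mark a mouse. Residuals of CL and UUO libraries with the same number correlated at 0.134, 0.364 and 0.335 in Acot12+/+ and 0.322, 0.186 and 0.318 in Acot12-/- kidneys. Different numbers gave at most 0.139 and −0.075. The 0.134 of Acot12+/+ replicate 1 was thus not above the 0.139, and a shared order of processing could not be told apart from a shared mouse. For the blocked fits the numbers were assumed to pair kidneys within a genotype. Blocked values are given where they changed a call. Alternatives were a pseudocount of 0.1, other filters, median-ratio and equal-total scaling, no trend, the replicate block, fits of the compared groups alone, the 58 genes kept, and leaving out each library.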

Additional observations from a re-analysis of the deposited data

How the results depend on the processing

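When single libraries were left out, 4911 to 8177 genes were called for UUO against CL in Acot12+/+ (5 to 8 of the 10), 5816 to 8388 in Acot12-/- (8 to 10), 7807 to 9094 over both genotypes (9), 187 to 2918 between genotypes in CL (0 to 5), 0 to 2 in UUO kidneys (0) and 0 to 899 for the interaction (0), with 7 to 8 genes past the threshold relative to proximal tubule markers and 5 to 6 pairs. The highest numbers of genes called came without Acot12-/- CL replicate 2, except between genotypes in UUO kidneys. For UUO against CL in Acot12+/+ kidneys, where 6 of the 10 and 6290 genes were called, 9 (8578 genes) were called in a fit of those groups alone, 8 (6754) with the replicate block and 4 (8685) with equal totals. In Acot12-/- kidneys the 9 of the 10 and 7114 genes became 8 (5341), 9 (7445) and 7 (7839).

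Between genotypes in CL kidneys, 312 genes were called with at least 1 FPKM in all 12 libraries, 326 with equal totals and 1 (0 of the 10) in a fit of the CL libraries alone, against 593 (1 of the 10). In UUO kidneys the 2 genes became 0 with a pseudocount of 0.1, no filter, the replicate block, the UUO libraries alone or the 58 genes kept. The 14 genes of the interaction became 0 without a filter or with equal totals, 8 with at least 1 FPKM in all 12 libraries or no trend, 53 with median-ratio size factors and 83 with the replicate block. Over both genotypes 5 of the 10, not 9, were called with equal totals.

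Signs changed with equal totals for Gamt (0.056), Oat (0.30) and Glul (0.18) after UUO in Acot12+/+ kidneys, for Prodh2 over both genotypes (0.37), and for Asl (−0.011), Oat (−0.083) and Glud1 (−0.12) between genotypes in UUO kidneys, none of which was then called. Leaving out each library gave both signs for Prodh2 after UUO in Acot12+/+ kidneys (−0.17 to 0.57) and Ass1 in the interaction (−0.90 to 0.26). Between genotypes in UUO kidneys it did so for Asl (−0.033 to 0.50), Arg2 (−0.44 to 0.0090), Oat (−0.047 to 0.27), Prodh2 (−0.16 to 0.58) and Glud1 (−0.0072 to 0.13). Relative to proximal tubule markers Ass1 became 0.051 with a pseudocount of 0.1 and 0.0045 with equal totals, and ran from −0.21 to 0.075 when a library was left out. The cause of these changes was not tested.

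The replicate block changed 2 calls of the 10 genes, Asl (adjusted p = 0.00473) and Gamt (0.0125) in Acot12+/+ kidneys, and no other call of theirs. With 3 libraries a group the spread is poorly known, and FPKM carry no counts, so counting error entered only through replicates.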

Other observations

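Arg1, the cytosolic arginase of the liver and of some macrophages, did not pass the filter on low values and was chosen after its values were seen. It had 0.057 to 0.18 FPKM in Acot12+/+ CL and 0 to 0.109 in Acot12-/- CL libraries. After UUO it had 0.913, 0.266 and 0.285 FPKM in Acot12+/+ and 4.33, 8.40 and 0.615 in Acot12-/- libraries. The 2 high libraries, Acot12-/- replicates 1 and 2, lay above all others, and replicate 3 lay below the highest Acot12+/+ UUO library, so the genotypes overlapped. The difference was not tested.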
